A study of Mus musculus with 2 samples.

Results

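The genes described here encode enzymes of fatty acid beta-oxidation and ketone body metabolism, with the acyl-CoA thioesterases and a few further peroxisomal genes. The 35 genes were chosen by gene name and not by a limit on their values, and 34 of them were measured on both arrays, out of 12443 genes measured in all. They were represented by 44 of the 55681 non-control probes, and 42 of these passed the scanner flag for signal well above background on both arrays. The mice were wild-type males, and RNA was taken from their intestinal epithelial cells after pieces of intestine had been kept for 2 h in 0.5 µM cholic acid, a primary bile acid, or in vehicle made of 0.05% DMSO and 0.25% ethanol. Each condition was measured on 1 one-colour Agilent array. The labels used here give neither the strain nor the age nor the number of mice, and they do not say whether the cholic acid incubation contained the same solvents.

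Beta-oxidation shortens a fatty acyl-CoA in a repeating cycle of dehydrogenation, hydration, a further dehydrogenation and thiolysis, each turn releasing acetyl-CoA. Mitochondria carry out the cycle on most dietary fatty acids, passing electrons to the respiratory chain, whereas peroxisomes use acyl-CoA oxidases that make hydrogen peroxide and act on very long and branched chains and on the side chain of bile acid precursors. In the small intestine these enzymes are most abundant in absorptive enterocytes, and many of them are targets of the nuclear receptor PPARα.

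With 1 array in each condition no test between conditions was possible, and every difference below is a value without a replicate check. Signals are processed intensities put on the vehicle array's scale, for which the cholic acid signals were multiplied by 1.43. Differences are log2 values, cholic acid minus vehicle, and a higher signal of 1 probe than of another is not read as more RNA. Genes were ranked by signal only to find others measured at a like brightness. Over all genes the median difference was 0.076. It was higher for dim genes, with 0.34 over the 3111 dimmest genes and -0.097 over the 3111 brightest, so each member was also set beside the 1000 genes nearest to it in signal. Among 226 probes spotted 10 times on each array, the median SD of a difference between single spots was 0.11, which covers spotting and scanning error only.

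The labelled cell type could be seen in the data, and so could other cells. All 12 enterocyte markers were measured, and their summed signal was 1175780 on the cholic acid array and 1090590 on the vehicle array. Of these markers 10 had differences below 0, and the median difference was -0.49. The 2 above 0 made up much of the sum. They were Fabp2, with 494953 in cholic acid and 325000 in vehicle, and Anpep, with 298974 in cholic acid and 226000 in vehicle. The summed signal of T cell markers was 180710 on the cholic acid array and 117245 on the vehicle array, with 11 of 12 measured markers above 0 and a median of 0.86. Gzma, with 139617 in cholic acid and 87500 in vehicle, made up most of this sum, and Cd4 was the marker below 0, at -0.71. The 6 measured B cell markers, of 8 listed, were all above 0, with summed signals of 4624 on the cholic acid array and 3395 on the vehicle array. Their median was 1.49 and 4 of the 6 were at least 2-fold higher, while Jchain, with 3133 on the cholic acid array and 3100 on the vehicle array, made up most of the sum. Of the listed markers not measured, Ms4a1 passed the background flag on the cholic acid array only, and Blk on neither. The 5 measured smooth muscle markers, of 7 listed, were also all above 0, with a median of 0.69 and summed signals of 1338 on the cholic acid array and 1095 on the vehicle array, and the defining markers Myh11 and Des passed that flag on neither. Of 6 hepatocyte markers Alb, Ttr and Fgb passed it on neither array, and the other 3, with a median of 0.43, summed to 168 on the cholic acid array and 110 on the vehicle array. Most of the measured smooth muscle and hepatocyte markers were dim. Several B cell markers were dim on the vehicle array too, where Pax5 had 17.5, Cd79a 39.2, Pou2af1 43.7 and Mzb1 60.8. Over the 3111 dimmest genes the median was 0.34 and 25.6% lay below 0, and these markers were not set beside genes of like brightness. Fewer cells of a type and less RNA per cell cannot be told apart in such samples, and the part of the cell mixture in the differences below was not tested.

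The probes that carry the widest differences can be read directly from the array design. The first 30 bases of each are shown, because they identify what was measured for Acox2, which was highest in cholic acid among the members, and for Acadm, which was lowest. The Acox2 probe lies on the minus strand at chr14:9058141-9058200 and the Acadm probe on the minus strand at chr3:153585670-153585729, both on mm9, the build of the deposited files.
Acox2: tggcgtgcggcttgttcagatcagcgagta
Acadm: tatggtgaccctttctagataggtttggct

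Most of the pathway differed little between the 2 arrays. Acox2, Acot3 and Acot1 were at least 1.5-fold higher with cholic acid, 3 of 34 measured members, and 17.4% of all measured genes passed the same limit. Acadm and Ech1 were at least 1.5-fold lower, 2 of 34, beside 7.80% of all genes. Only Acox2 was at least 2-fold higher, beside 6.45% of all genes, and none of the 34 was at least 2-fold lower, beside 2.08%. These 2-fold counts turned on the processing. Acox2 stayed at least 2-fold higher under 8 of 14 alternatives, but 7 of these leave the value of its 1 probe unchanged. Among the alternatives that change it, only scaling on the median kept Acox2 past 2-fold, at 1.02. Acadm was at least 2-fold lower under 3 of the 14. The differences of 23 members lay below 0 and those of 11 above, whereas 43.2% of all genes lay below 0 and 56.8% above. The members' median was -0.10.

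The members gave strong signals, which bears on these counts. Of the 34, 26 were among the 3111 brightest genes, where 60.4% of all genes lay below 0 and 18 of the 26 members did. Among these bright genes 11.0% of all genes were at least 1.5-fold lower and 6.69% at least 1.5-fold higher, against 2 and 0 of the 26 members. Set against their nearest genes in signal, 19 members lay below the median of those neighbours and 15 above. In all, 5 members, namely Acox2, Ech1, Acadm, Acot3 and Phyh, lay more than 1 robust SD from it, beside 33.5% of all genes, and Acadm alone more than 2, beside 8.86% of all genes.

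The counts also moved with the scaling. Scaling on the 75th percentile of all probes shifted the differences of all genes by -0.23, and then 2 members were at least 1.5-fold higher and 6 at least 1.5-fold lower, beside 10.2% and 16.5% of all genes. Scaling on the median shifted them by -0.13 and gave 2 higher and 3 lower, beside 12.6% and 12.0% of all genes. With quantile normalization 2 members were higher and 1 lower, beside 10.5% and 12.4%, and with a loess correction 2 were higher and 1 lower, beside 11.4% and 11.2%. Under all 14 alternatives the members' median lay below that of all genes, by between 0.11 and 0.46. The widest gap came without a filter on dim probes, where the median of all genes was 0.38. Scalings that shift all genes alike cannot change this gap. Under the main setting the members' median of -0.10 was close to the -0.097 of the 3111 brightest genes.

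**Figure D1:**
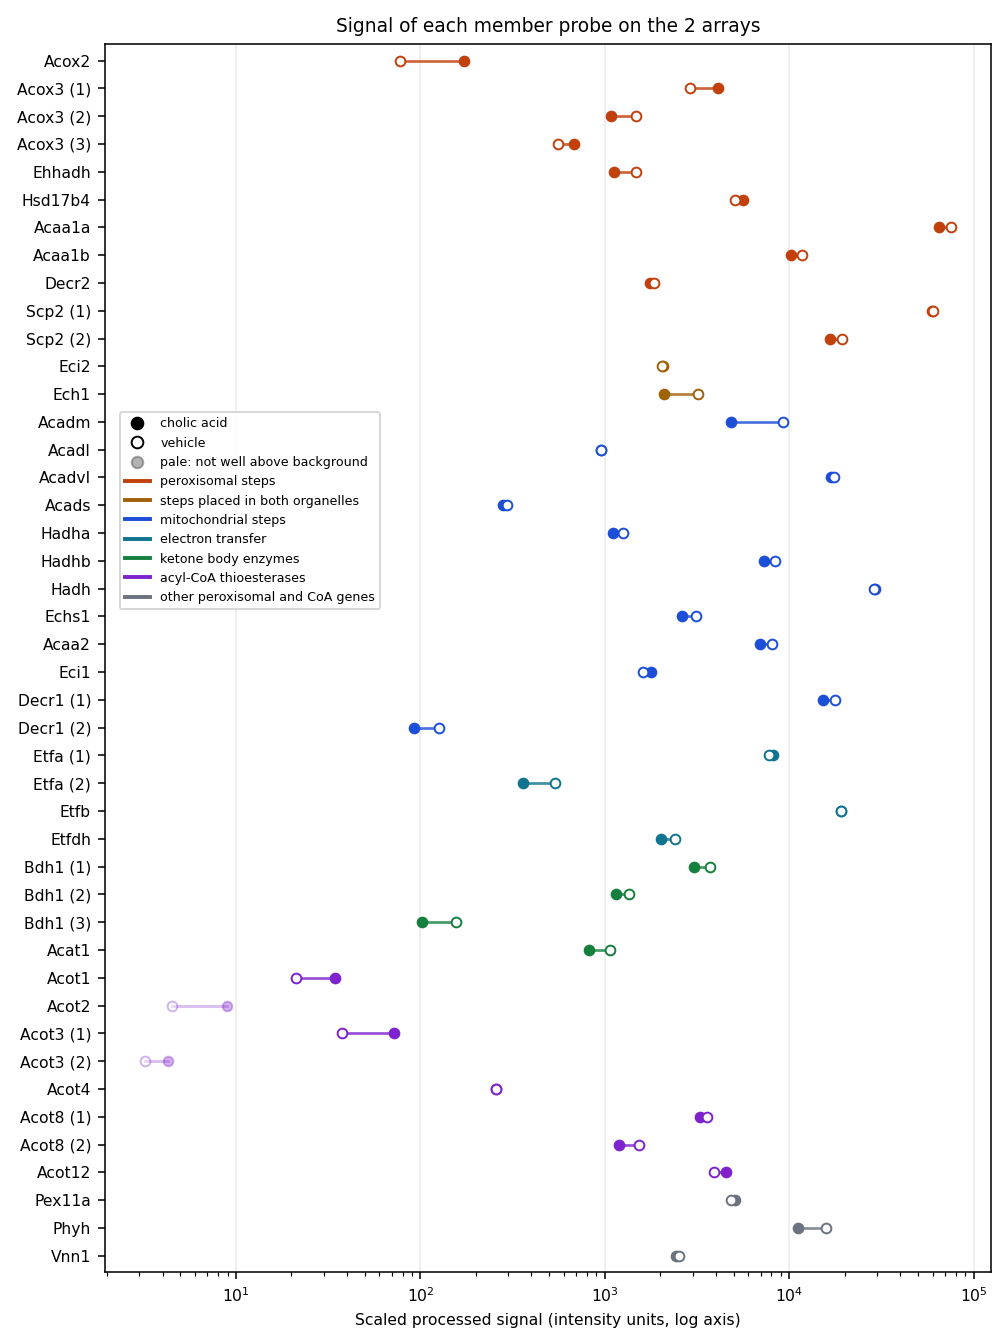
Scaled processed signal (intensity units, log axis) of each of the 44 member probes on the cholic acid array (filled points) and the vehicle array (open points), coloured by role, with genes of several probes numbered. Most pairs nearly coincide, while Acox2 stands at 173 in cholic acid against 77.5 in vehicle and Acadm at 4806 against 9230.

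The peroxisomal steps were led by Acox2, the branched-chain acyl-CoA oxidase that acts on the side chain of bile acid precursors. Acox2 had a signal of 173 in cholic acid and 77.5 in vehicle, a difference of 1.16 or 2.23-fold higher. The 1000 genes nearest in signal had a median of 0.19 and a robust SD of 0.49, so Acox2 lay 1.99 robust SDs above them. Its difference ran between 0.85 and 1.16 over the 14 alternatives and stayed past 1.5-fold in each.

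Acox3, the oxidase for pristanoyl-CoA, had 3 probes that went opposite ways. The first 30 bases of each are given because the gene's average hides this. From the 5′ to the 3′ end of the gene, on the plus strand of chromosome 5, they begin at positions 35952411, 35954432 and 35956215 (mm9).
Acox3 5′ probe: agatgtcatcgccccctccgactttgttct
Acox3 middle probe: gctcccatcaggcttgcttttatggcactt
Acox3 3′ probe: aaccagacttagatgggtgatatcacatga

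The 5′ probe of Acox3 had 4120 in cholic acid and 2900 in vehicle, a difference of 0.51. The middle probe had 678 in cholic acid and 557 in vehicle, a difference of 0.28. The 3′ probe had 1086 in cholic acid and 1480 in vehicle, a difference of -0.45. The gene's average of 0.11 therefore describes none of its probes, and it was below 0 under 3 of the 14 alternatives.

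The later peroxisomal steps had differences between -0.39 and 0.16. Ehhadh, the L-bifunctional enzyme that hydrates and then dehydrogenates the chain, was the lowest of the peroxisomal group, with 1127 in cholic acid and 1480 in vehicle, a difference of -0.39. That lay 0.82 robust SDs below the nearest genes in signal. Hsd17b4, the D-bifunctional enzyme that handles branched chains and bile acid precursors, differed by 0.16 and was below 0 under 1 alternative. The paired thiolase genes Acaa1a and Acaa1b, which release acetyl-CoA at the end of the cycle, differed by -0.21 and -0.19. Acaa1a had 65088 in cholic acid and 75100 in vehicle. Scp2, which encodes both a thiolase for branched chains and sterol carrier protein, had 2 probes with differences of -0.03 and -0.21. Decr2, the peroxisomal dienoyl-CoA reductase needed for unsaturated chains, differed by -0.065.

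Eci2 and Ech1 encode auxiliary enzymes for unsaturated chains that are found in both organelles. Ech1, a dienoyl-CoA isomerase, had 2103 in cholic acid and 3180 in vehicle, a difference of -0.60 or 1.51-fold lower. It lay 1.32 robust SDs below the nearest genes in signal and passed 1.5-fold under 11 of 14 alternatives. Several of those 11 leave the value of its 1 probe unchanged. Ech1 fell short of 1.5-fold with quantile normalization, the loess correction and the authors' processed values. Its probe is 60 bases long but spans 161 bases at chr7:29616256-29616416 (mm9). Eci2, an enoyl-CoA isomerase, had 2060 in cholic acid and 2030 in vehicle, a difference of 0.021 that was below 0 under 3 alternatives.

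Among the mitochondrial steps Acadm had the lowest difference. Acadm encodes the medium-chain acyl-CoA dehydrogenase, and its probe, printed above, had 4806 in cholic acid and 9230 in vehicle, a difference of -0.94 or 1.92-fold lower. It lay 2.28 robust SDs below the nearest genes in signal, and its difference ran between -1.17 and -0.93 over the alternatives, past 1.5-fold in all 14. The 3 other straight-chain acyl-CoA dehydrogenases among the members had differences nearer to 0. The long-chain enzyme Acadl had 947 in cholic acid and 951 in vehicle, a difference of -0.0061. The very-long-chain enzyme Acadvl differed by -0.056 and the short-chain enzyme Acads by -0.081. Each of these 3 lay at most 0.31 robust SDs from its nearest genes, and Acadl and Acads took both signs over the alternatives. Of the related dehydrogenases outside the members, Acad11 differed by -0.51, Acad9 by -0.013, Acad10 by 0.028, Acad8 by 0.31 and Acadsb by 0.60. Acad8 and Acadsb were dim, with 32.8 and 54.6 in cholic acid and 26.5 and 36.1 in vehicle. Over the 3111 dimmest genes the median difference was 0.34.

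The rest of the mitochondrial cycle lay in a narrow range. Hadha and Hadhb, the subunits of the trifunctional protein that carries out the last steps on long chains, differed by -0.18 and -0.21. These genes lie head to head, and their 300-base start windows in the RefSeq table share 228 bases on opposite strands. Their differences were 0.021 apart, less than the spread between single spots. Members on different chromosomes were as close, as Hadhb at -0.205 and Acaa1a at -0.206, and a link with the shared start region was not tested. The Hadhb probe shares a run of 22 bases with a probe of no named gene, which had 2346 in cholic acid and 2470 in vehicle, a difference of -0.074, and whether it also captured that transcript was not tested. Hadh, the short-chain hydroxyacyl-CoA dehydrogenase, differed by 0.024 and was below 0 under 7 of the 14 alternatives, while Echs1, the short-chain hydratase, differed by -0.24 and was below 0 under all of them.

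Acaa2, the mitochondrial thiolase, was spotted 10 times on each array. Its spots ran between 6695 and 7153 in cholic acid and between 7920 and 8300 in vehicle, so the spots of the 2 arrays did not overlap after scaling. Its difference was -0.22, with an SD between spots of 0.033 on the cholic acid array and 0.023 on the vehicle array (log2). The repeated spots measure the array and not the mice. Acaa2 lay 0.31 robust SDs below its nearest genes in signal, whose median was -0.11. Eci1, the mitochondrial enoyl-CoA isomerase, was the highest of the mitochondrial group, with 1788 in cholic acid and 1600 in vehicle, a difference of 0.16 that was below 0 under 2 alternatives. Decr1, the mitochondrial dienoyl-CoA reductase, had 2 probes with differences of -0.46 and -0.21.

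**Figure D2:**
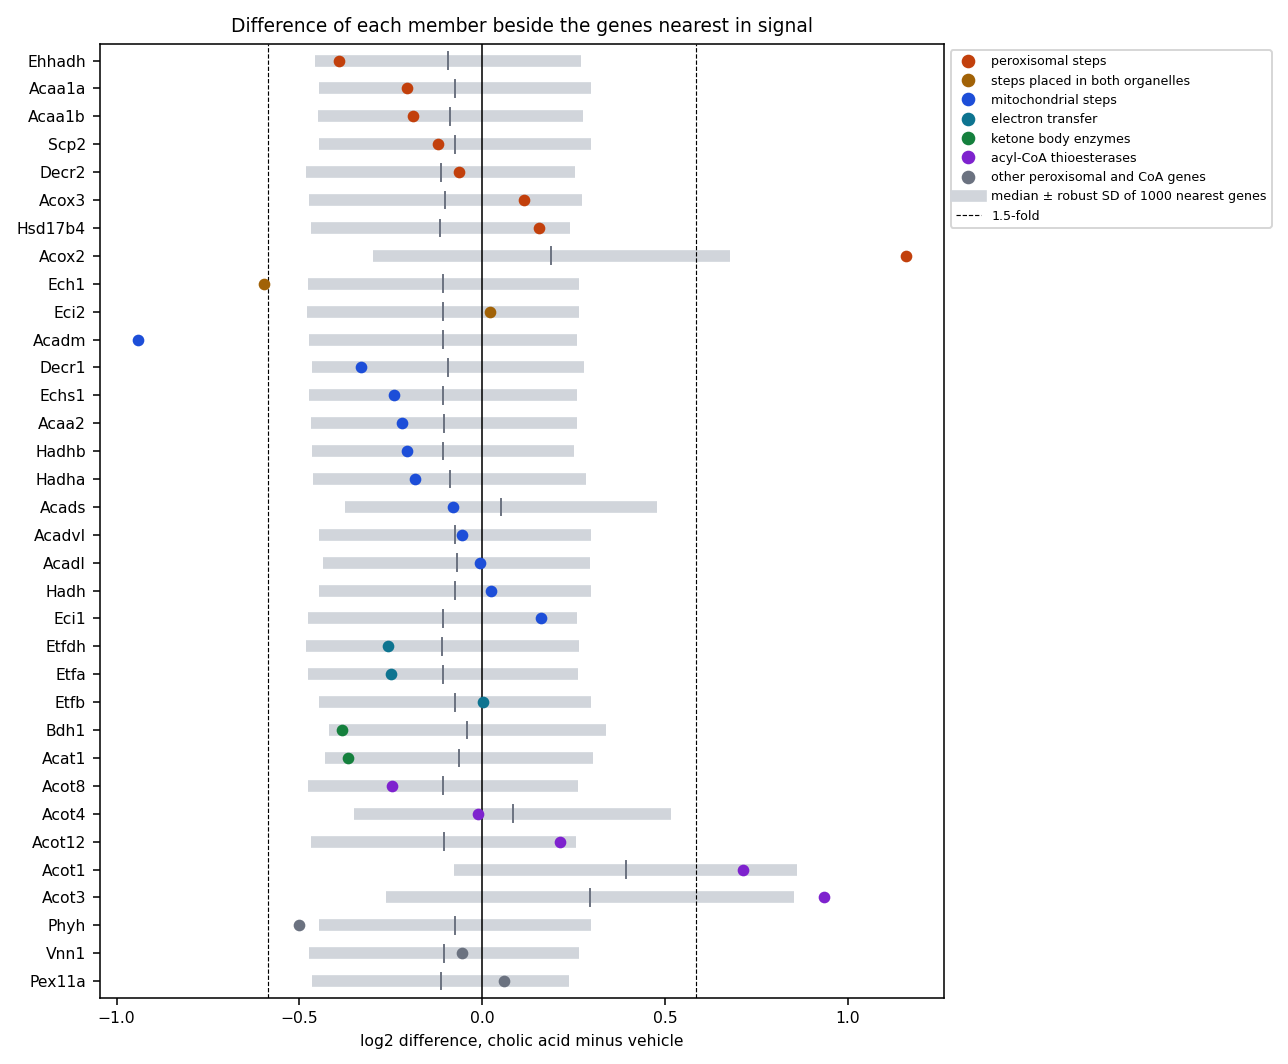
Log2 difference, cholic acid minus vehicle, of each of the 34 measured members (points, coloured by role), with the median (tick) and 1 robust SD to either side (grey bar) of the 1000 genes nearest in signal, and dashed lines at 1.5-fold. Acox2 at 1.16 and Acadm at -0.94 lie farthest from 0, and 29 of the 34 members lie inside their grey bars, while 33.5% of all genes lie outside the bars of their own neighbours.

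The differences of peroxisomal and mitochondrial steps overlapped. The 8 peroxisomal genes had a median difference of -0.09, with 5 below 0 and 3 above, and the 11 mitochondrial genes a median of -0.18, with 9 below 0 and 2 above. The peroxisomal median was thus 0.092 higher. The means were 0.057 ± 0.48 for the peroxisomal genes (SD over 8 genes) and -0.19 ± 0.29 for the mitochondrial genes (SD over 11 genes), which are spreads between genes and not between samples. The means were 0.25 apart, and 0.089 apart without Acox2. Of the peroxisomal genes 7 of 8 lay within the mitochondrial range, and 10 of 11 mitochondrial genes lay within the peroxisomal range. Both medians were below 0 and below the median of all genes under all 14 alternatives. Scalings that shift all genes alike cannot change the place of these medians beside all genes. Most members were bright, and under the main setting the 3111 brightest genes had a median of -0.097. The peroxisomal median was close to that value and the mitochondrial median was below it.

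**Figure D3:**
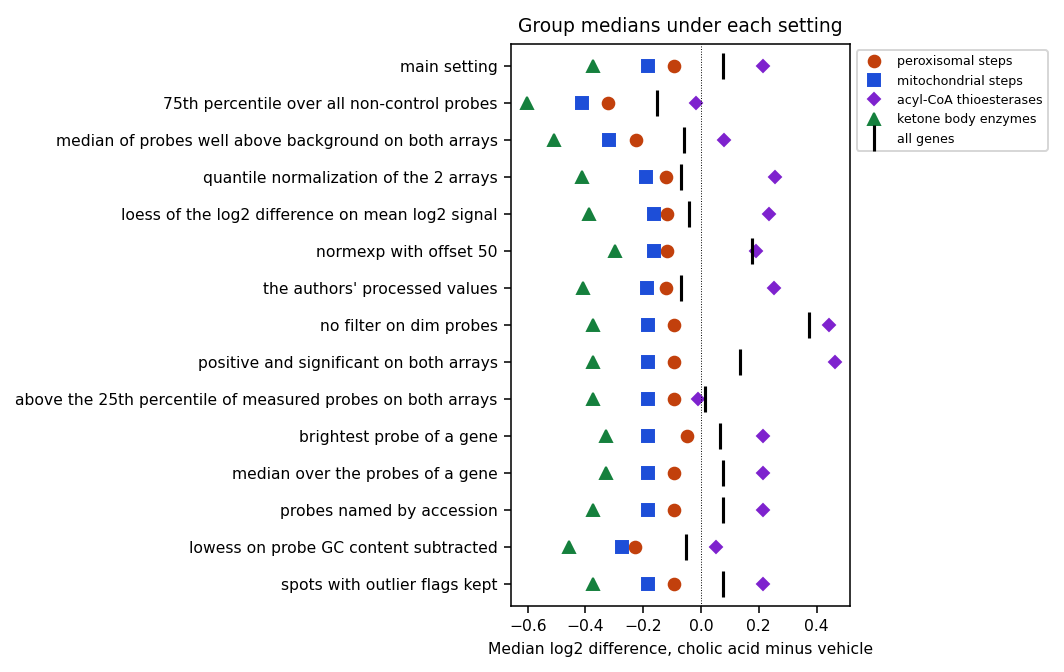
Median log2 difference, cholic acid minus vehicle, of 4 role groups and of all genes under the main setting and each of the 14 alternatives. The peroxisomal and mitochondrial medians stay to the left of all genes in every row, while the thioesterase median lies below 0 in 2 of the alternatives.

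The electron transfer genes hand the electrons of the mitochondrial dehydrogenases to the respiratory chain. Etfb, the beta subunit of the electron transfer flavoprotein, had 19026 in cholic acid and 19000 in vehicle, a difference of 0.0019 that was below 0 under 7 alternatives. Etfdh, which passes the electrons on to ubiquinone, had 2017 in cholic acid and 2410 in vehicle, a difference of -0.26. Etfa, the alpha subunit, had 2 probes that went opposite ways, on the minus strand of chromosome 9, and their first 30 bases are shown for that reason. They lie at chr9:55309428-55309487 and chr9:55343560-55343619 (mm9), and the first is the one nearer the 3′ end.
Etfa 3′ probe: agatccagaagctccaattttccaggtggc
Etfa 5′ probe: tctatgtaaagtagctggcatagcaaaggt

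The Etfa probe nearer the 3′ end had 8168 in cholic acid and 7740 in vehicle, a difference of 0.078. The other had 362 in cholic acid and 539 in vehicle, a difference of -0.57. Of the 6 members with several measured probes, the most 3′ probe had the lower difference in 4 (Acox3, Bdh1, Decr1 and Scp2) and the higher in 2 (Etfa and Acot8). Among these 6 genes probe position therefore did not order the differences one way. Some of the probes, as those of Scp2, lie close together and were not placed in exons, so an effect of position was not tested.

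The ketone body enzymes were the lowest group, with a median of -0.37. Bdh1, which interconverts acetoacetate and beta-hydroxybutyrate, had an average of 707 in cholic acid and 923 in vehicle, a difference of -0.38. Its 3 probes all lay below 0, at -0.24, -0.29 and -0.62. Acat1, the mitochondrial acetoacetyl-CoA thiolase, had 823 in cholic acid and 1060 in vehicle, a difference of -0.37. Both genes were below 0 under all 14 alternatives and lay within 1 robust SD of their nearest genes.

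The acyl-CoA thioesterases, which split acyl-CoA into free acid and CoA, were the group with the highest median, 0.21, which was below 0 under 2 of the 14 alternatives. Acot3, a peroxisomal enzyme for long chains in mouse, had 71.7 in cholic acid and 37.5 in vehicle, a difference of 0.93 or 1.91-fold higher. Acot1, the cytosolic enzyme, had 34.6 in cholic acid and 21.1 in vehicle, a difference of 0.71 or 1.64-fold higher. Both were dim, and the 1000 genes nearest to them in signal had medians of 0.29 and 0.39. Acot1 lay 0.69 robust SDs above its neighbours and Acot3 1.15. Acot3 passed 1.5-fold under 12 of 13 alternatives, but several of these leave its value unchanged. It was only just past the limit with quantile normalization, at 0.593, and with the authors' processed values, at 0.591. With normexp it fell short, at 0.571. Acot1 passed 1.5-fold under 7 of 13. Most of those 7 leave the value of the 1 Acot1 probe unchanged. Among the alternatives that change it, only subtracting the trend with probe GC content kept Acot1 past 1.5-fold, at 0.65.

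The Acot3 value rests on a probe of low complexity. The start of this probe, at chr12:85400452-85400511 on the plus strand (mm9), is rich in alternating c and a, and it is shown beside the start of the other Acot3 probe at chr12:85399468-85399527.
Acot3 measured: gtgtacacacacacatatacacacaagcac
Acot3 other: tcatcaatggctctatatccaacatcggcg

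The measured Acot3 probe shares a run of 21 bases with a probe for Itgam, an integrin gene of myeloid cells, which had 17023 in cholic acid and 20100 in vehicle, a difference of -0.24. On neither array was the other Acot3 probe well above background. Whether the measured probe also captured other transcripts was not tested.

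The remaining thioesterases differed less. Acot8, a peroxisomal enzyme of broad specificity that also acts on bile acid CoA esters, was the lowest, with 1976 in cholic acid and 2344 in vehicle, a difference of -0.25, and its probes lay at -0.14 and -0.35. Acot4, a peroxisomal enzyme for dicarboxylic acids, differed by -0.011 and took both signs over the alternatives. Acot12, a cytosolic acetyl-CoA hydrolase, differed by 0.21 and was below 0 under 1 alternative. Acot2, the mitochondrial enzyme, was the single member not measured, because its probe passed the background flag on neither array.

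The last 3 members serve peroxisomes and CoA turnover. Phyh, the hydroxylase that starts alpha-oxidation of phytanic acid, had 11086 in cholic acid and 15700 in vehicle, a difference of -0.50 or 1.42-fold lower. It lay 1.15 robust SDs below its nearest genes and was just short of the 1.5-fold limit, which it passed under 2 of the 14 alternatives. Pex11a, a membrane protein of peroxisome division, was spotted 10 times, with spots between 4764 and 5207 in cholic acid and between 4550 and 5140 in vehicle. Its average was 5063 in cholic acid and 4855 in vehicle, a difference of 0.061, and the spots of the 2 arrays overlapped after scaling. Vnn1, a pantetheinase that recycles the precursor of CoA, differed by -0.054.

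**Figure D4:**
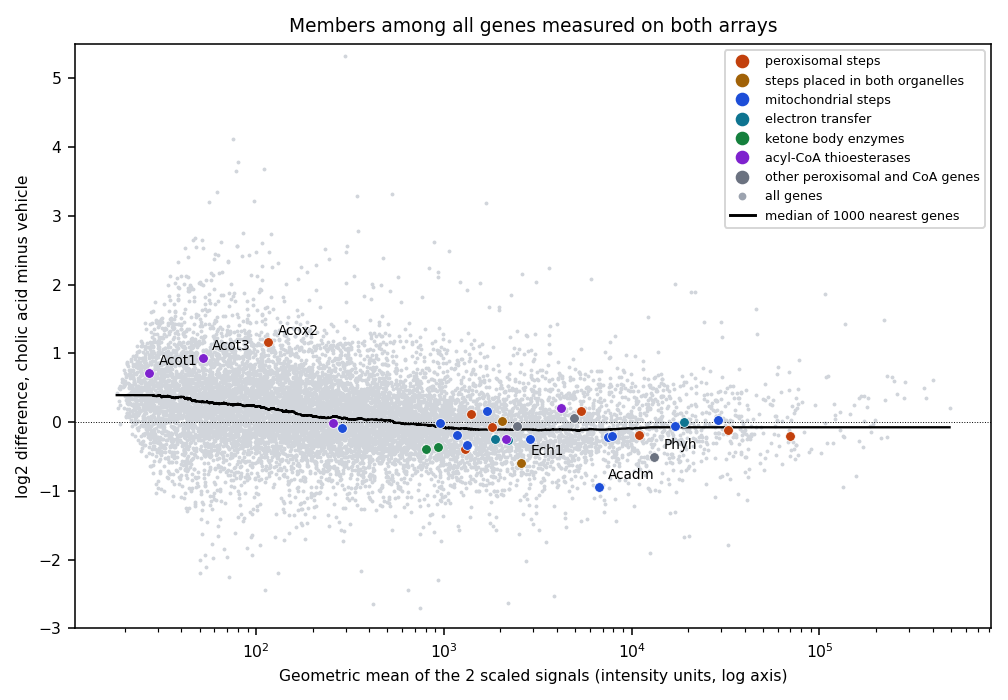
Log2 difference, cholic acid minus vehicle, against the geometric mean of the 2 scaled signals (log axis) for 12443 genes (grey) and the 34 measured members (coloured by role), with the median of the 1000 nearest genes as a line. The line lies above 0 for dim genes, where Acot1, Acot3 and Acox2 are found, and 26 of the members are among the 3111 brightest genes.

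Other genes of the pathway included wider differences. Of 30 such genes 29 were measured, 21 had differences below 0, 4 were at least 1.5-fold lower (beside 7.80% of all genes) and 1, Acadsb at 0.60, at least 1.5-fold higher (beside 17.4%), with a median of -0.31 beside 0.076 over all genes. Acadsb was dim, with 54.6 in cholic acid and 36.1 in vehicle. Abcd3, a peroxisomal membrane transporter of acyl-CoA, had 1860 in cholic acid and 4290 in vehicle, a difference of -1.21. Slc27a2, a very-long-chain acyl-CoA synthetase, had 1831 in cholic acid and 3860 in vehicle, a difference of -1.08.

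Abcd3 and Slc27a2 were the genes at least 2-fold lower, beside 2.08% of all genes. The other genes at least 1.5-fold lower were Nudt19, a peroxisomal CoA diphosphatase, at -0.93 and the thioesterase gene Acot10 at -0.91. The single probe of Abcd2, another peroxisomal transporter, passed the background flag on neither array. The 18 genes of peroxisome assembly and the peroxisomal matrix that were listed were all measured. None was 1.5-fold apart, beside 7.80% of all genes at least 1.5-fold lower and 17.4% at least 1.5-fold higher. They ran from -0.49 for Cat, the catalase that removes hydrogen peroxide, to 0.45 for Pxmp4, a peroxisomal membrane protein, with a median of -0.17.

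Start-site sequences were set beside these differences. Of the 35 members 30 were matched by symbol in the RefSeq promoter table (GRCm38.p6), giving 33 windows from 250 bases before the start to 50 after it. The direct repeat made of AGGTCA, any base and AGGTCA, the form bound by PPARα with its partner RXR, was searched on both strands and was in 0 of the 33 windows, beside 0.0396% of 32851 windows in all. A looser form, made of NGGNCA, any base and AGGNCA, was in 3 of 33 windows, those of Acox2 (both of its starts) and Acot4, beside 0.798% of all windows. The windows of Acox2 overlap and hold the same site, so by gene the looser form was in 2 of 30 members, beside 0.929% of 27025 genes. The single site AGGTCA, which overlaps the direct repeat and can overlap the looser form, was in 9 of 33 windows, beside 16.3% of all, or by gene in 8 of 30 members, beside 18.1% of all genes.

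The 250 bases before the start are printed for Acox2 and Acot4, which hold the looser repeat but differed by 1.16 and -0.011, and for Acadm, which was lowest among the members and holds the single site. Capitals mark the looser repeat in Acox2 and Acot4 and the single site in Acadm, and in Acot4 and Acadm the match is on the opposite strand, so the reverse complement is seen. The windows are chr14:8259020-8259269 on the minus strand, chr12:84038129-84038378 on the plus strand and chr3:153944644-153944893 on the minus strand (GRCm38.p6).
Acox2: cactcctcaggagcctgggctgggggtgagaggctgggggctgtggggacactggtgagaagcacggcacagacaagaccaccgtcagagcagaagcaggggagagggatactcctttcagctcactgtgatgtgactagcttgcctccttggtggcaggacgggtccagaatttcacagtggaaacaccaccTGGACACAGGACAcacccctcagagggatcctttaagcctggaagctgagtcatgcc
Acot4: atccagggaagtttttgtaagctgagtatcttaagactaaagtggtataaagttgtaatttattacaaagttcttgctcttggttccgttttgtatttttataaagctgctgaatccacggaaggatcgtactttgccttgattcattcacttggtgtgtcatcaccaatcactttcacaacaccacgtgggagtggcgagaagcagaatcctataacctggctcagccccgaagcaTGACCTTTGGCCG
Acadm: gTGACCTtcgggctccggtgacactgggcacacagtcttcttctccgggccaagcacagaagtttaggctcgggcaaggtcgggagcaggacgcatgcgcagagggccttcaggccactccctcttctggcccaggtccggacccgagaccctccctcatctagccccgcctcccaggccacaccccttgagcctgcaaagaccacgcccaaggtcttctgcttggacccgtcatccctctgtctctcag

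A match describes letters in the window and does not show binding. The full repeat is so rare in all windows that its absence from the members' windows decides nothing. Sites outside these windows were not searched.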

How the data were processed

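RNA from 1 cholic acid and 1 vehicle incubation was amplified as Cy3-labelled cRNA, per the labels' protocols. The scanner files the authors deposited give an intensity per spot from which background and spatial trends were removed on each array, dim spots having surrogate values, per the file headers. These headers give Agilent Feature Extraction 10.7.1.1 and array design 028005, whereas the submitters' processing notes list version 9.5.1.1. The authors' deposited table of processed intensities has a median of 10.09 on each array, and its sorted columns lie within 0.0243% of each other; it served as an alternative.

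Each array had 62976 spots, 3671 of them controls. Spots with outlier flags were left out, 119 on the cholic acid array and 124 on the vehicle array, none of them of a member, and no spot was saturated. Repeated spots of 1 probe were averaged as log2 signals. These were scaled to each array's 75th percentile of the 22614 probes (40.6%) that both arrays flagged as well above background, which was 741 for cholic acid and 1060 for vehicle. A gene's value is the mean over its measured probes. Probes were named by the files' gene names, with Dci and Peci found as Eci1 and Eci2, and updated through the RefSeq table by accession (27325 probes), symbol (3523) or synonym (546); 24287 had no entry.

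Python 3.11.15 with pandas 2.3.3 was used, and R 4.3.3 with limma 3.58.1 for normexp (offset 50). The steps were tested on simulated data. Members and gene lists were chosen with earlier results of these data known, and some genes of these lists are not reported here and were left out of their counts. All 35 members are named. Signals on both arrays are given at least for members 1.5-fold apart, for the highest and lowest of each role group and for members whose probes go opposite ways. Of the other pathway genes those 2-fold apart are named, and Abcd2, Nudt19, Acot10, Acadsb, Acad8, Acad9, Acad10, Acad11, Cat and Pxmp4 besides, chosen after their values were seen. Exon and UTR annotation on mm9 was not used here. The number of arrays limits the precision, and with 1 per condition no test was made.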

Additional observations from a re-analysis of the deposited data

How the results depend on the processing

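The peroxisomal and mitochondrial medians kept their sign under the 14 alternatives. The 5 members past 1.5-fold kept theirs under each alternative in which they were measured. The thioesterase median was below 0 under 2 of the 14 and the electron transfer median above 0 under 1. Scaling on the 75th percentile over all probes gave a peroxisomal median of -0.32, a mitochondrial median of -0.41 and 6 members at least 1.5-fold lower (Acadm, Acat1, Bdh1, Ech1, Ehhadh and Phyh), and scaling on the median gave -0.23 and -0.32. Subtracting the trend with probe GC content gave a peroxisomal median of -0.23. Quantile normalization, the loess correction and the authors' processed values each left 1 member at least 1.5-fold lower, Acadm. Normexp and the filter at the 25th percentile each left 1 member at least 1.5-fold higher, Acox2; that filter removed Acot1 and Acot3, and the cause under the others was not tested. A 2-fold limit left 1 higher and 0 lower. The difference between peroxisomal and mitochondrial steps was 0.25 with means in place of medians. Without Acox2, an alternative chosen after seeing the data, it was 0.089 with means and 0.064 with medians. The median of all genes shifted by 0.30 without a filter on dim probes, by -0.14 with quantile normalization, by -0.12 with loess, by 0.10 with normexp, by -0.15 with the authors' values and by -0.13 with the GC correction. Of 474 member values, 364 lay within the spot spread of the main value and 110 did not. Many of the 364 repeat the main value. Alternatives that only filter, combine or rename probes, or keep outlier spots, leave most genes with 1 measured probe unchanged. In all, 19 members were below 0 under every alternative in which they were measured, 3 above 0 (Acox2, Acot1 and Acot3) and 12 took both signs. Signals near background limit Acot1, Acot2 and Acot3. No paired analysis was possible because each condition has 1 array.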
